A study of Mus musculus with 3 samples.

Results

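Aminoacyl-tRNA synthetases were followed in primary mouse hepatocytes given tauroursodeoxycholic acid (TUDCA), a bile acid conjugated to taurine that also serves as a chemical chaperone. The genes were taken by symbol from a fixed list of 36, 20 for cytosolic and 16 for mitochondrial enzymes, out of 37620 gene identifiers in each deposited table. All 36 matched 1 identifier, and all 36 had a mean of at least 1 RPKM (reads per kilobase of gene, scaled to the reads of the library) over the 3 libraries, so none was lost to the filter on low values.

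These enzymes join each amino acid to its tRNA, the step that sets which amino acid a codon is read as. Separate nuclear genes usually serve the cytosol and the mitochondria, and the mitochondrial enzymes charge the tRNAs that the mitochondrial genome encodes. Several cytosolic enzymes sit in the multisynthetase complex, held by the scaffold proteins AIMP1, AIMP2 and AIMP3. The others are called free here, which means only that they are outside this complex. The transcription factor ATF4, which is made when eIF2-alpha is phosphorylated under amino acid shortage or endoplasmic reticulum stress, is known to induce many of the cytosolic genes, and the promoter element it binds with C/EBP partners is called a CARE.

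The series holds 1 library from hepatocytes given the solvent DMSO and 2 from hepatocytes given TUDCA at 100 mM for 24 h. The dose is printed as labelled, and its unit, high for a cell culture, may be an error that the labels do not settle. All 3 came from passage 1 cultures of cells isolated from C57BL/6 mice by collagenase perfusion and plated on gelatin with serum and insulin. The labels give no age, sex or number of mice and no culture time for DMSO, so a difference in time cannot be told apart from TUDCA. The design text speaks of 2 separate experiments without saying which libraries belong to which, and the spread between the TUDCA libraries, called TUDCA 1 and TUDCA 2 here, may therefore be technical. The DMSO library may also come from another experiment than a TUDCA library, a difference that could not be told apart from TUDCA.

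The library totals behind the RPKM values were 10774289 reads for DMSO, 9757547 for TUDCA 1 and 10575699 for TUDCA 2. All 8 hepatocyte markers were above 1 RPKM in DMSO, with Alb at 5771 RPKM. Their summed level was 10099 RPKM in DMSO and 13033 and 11349 in TUDCA 1 and TUDCA 2, and 2 of the 8, Fgb and Hnf4a, were called higher. Alb and Fgb made up most of that rise, while Apoa1 alone stood below DMSO in both TUDCA libraries (2312, 2096 and 2135 RPKM). The 5 macrophage and Kupffer cell markers were also all above 1 RPKM, with sums of 221 in DMSO and 203 and 216 RPKM with TUDCA. That sum rested mostly on Cd68 (170, 154 and 169 RPKM) and Cd5l, both lower with TUDCA. Adgre1, Clec4f and Csf1r were above DMSO in both TUDCA libraries. The sums of 4 cholangiocyte markers were 31.7, 36.3 and 49.2 RPKM in the same order, those of 6 stellate cell and fibroblast markers 6.73, 5.96 and 5.57, and those of 4 endothelial markers 1.90, 3.12 and 2.66. Above 1 RPKM in DMSO were 2 of the cholangiocyte markers (Krt19 and Sox9, but not Krt7 and Epcam). The same held for 4 stellate cell and fibroblast and 0 endothelial markers. Both lymphocyte markers had no read. The part of these other cells in the results on synthetases was not tested, and in such bulk samples fewer cells of a type cannot be told apart from less RNA per cell.

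No synthetase passed the test between TUDCA and DMSO. By limma on log2(RPKM + 1), with Benjamini-Hochberg adjustment over 11300 genes and a threshold of 0.05, 0 of 36 were called in either direction, against 2.65% of all genes tested (0.876% lower and 1.77% higher). None of the 36 had an unadjusted p below 0.05 either, which 10.8% of all tested genes had, but 7 had one after a correction for GC content and gene length. The calls over all genes, 299, were 110 with that correction and 0 without the filter on low values. The smallest adjusted p was 0.487, for Pars2. The test has little reach, since only TUDCA 1 and TUDCA 2 replicate each other and the DMSO library, without a replicate, is assumed to vary as they do. What follows is therefore a description of levels and of the order of the 3 libraries.

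The order of the libraries differed by compartment. Of 20 cytosolic genes, 15 had both TUDCA libraries below DMSO, 2 had both above and 3 had DMSO between them. Of 16 mitochondrial genes, 3 had both below, 10 both above (8 after quantile normalization) and 3 on either side. Over all tested genes, 30.4% had both TUDCA libraries below DMSO and 40.5% had both above. The shared DMSO library ties the 2 differences of a gene to each other, so the background is the measure for these counts.

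The median log2 fold change was -0.22 for the cytosolic genes (-0.26 in TUDCA 1 and -0.18 in TUDCA 2) and 0.24 for the mitochondrial genes (0.14 and 0.29), against 0.04 for all tested genes (0.06 and 0.02). Level moves with this contrast. The cytosolic genes ran from 24.5 to 305.4 RPKM in DMSO with a median of 104.5, and the mitochondrial genes from 1.72 to 29.5 RPKM with a median of 8.63. Tested genes with a mean in the cytosolic range (3924 genes) had a median log2 fold change of -0.05 and those in the mitochondrial range (6386 genes) 0.09, with 41.7% and 24.0% having both TUDCA libraries below DMSO and 29.0% and 46.0% having both above. By library, the medians of these genes were -0.07 in TUDCA 1 and -0.03 in TUDCA 2 for the cytosolic range and 0.13 and 0.05 for the mitochondrial range. The cytosolic synthetases thus lay below genes of their range in both libraries, while the mitochondrial synthetases lay above theirs in TUDCA 2 and level with them in TUDCA 1 (0.14 against 0.13). These differences were not tested.

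**Figure D1:**
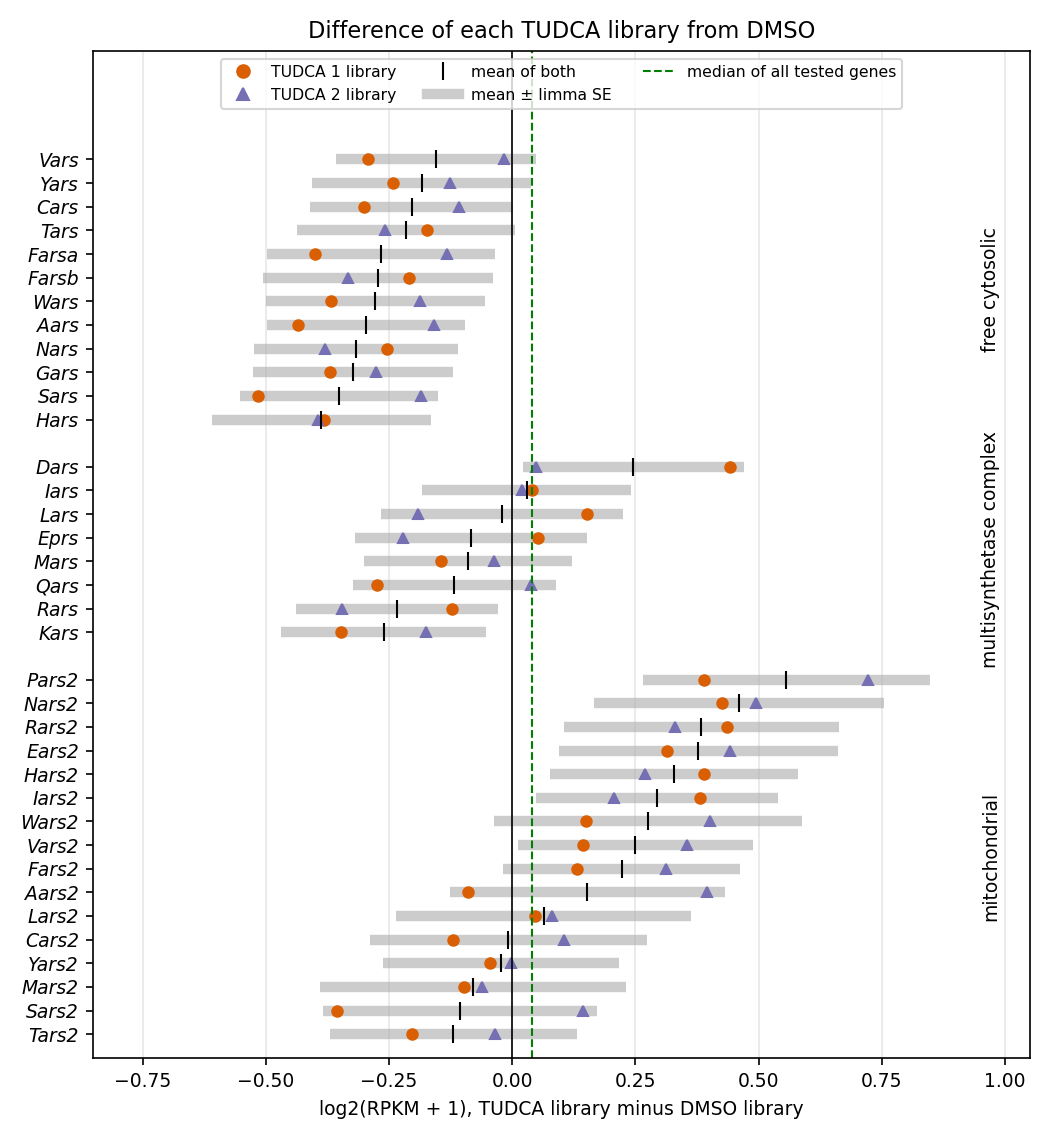
Difference of each TUDCA library from the DMSO library, in log2(RPKM + 1), for the 36 synthetase genes, grouped as free cytosolic, multisynthetase complex and mitochondrial. Points are single libraries, the black tick is their mean, grey bars span the mean ± the limma SE and the dashed line is the median of all tested genes (0.04). All 12 free cytosolic genes have both points left of 0 (11 after quantile normalization), while 10 of 16 mitochondrial genes have both points right of 0 (8 after quantile normalization, 9 with median centring).

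The free cytosolic enzymes gave the most uniform picture. All 12 (Aars, Cars, Farsa, Farsb, Gars, Hars, Nars, Sars, Tars, Vars, Wars and Yars) had both TUDCA libraries below DMSO (11 after quantile normalization), with log2 fold changes from -0.39 to -0.15 and a median of -0.27. For 10 of them the gap in each TUDCA library was also larger than counting error, the exceptions being Vars and Yars in TUDCA 2. No share over all tested genes was computed for this count.

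Sars, the seryl-tRNA synthetase (ENSMUSG00000068739), was the most abundant of the 36 transcripts, at 305.4 RPKM in DMSO, 213.2 in TUDCA 1 and 268.4 in TUDCA 2. Both TUDCA libraries were lower, TUDCA 1 more so, and the mean of 240.8 ± 39.0 RPKM (SD, n = 2) corresponded to a log2 fold change of -0.35 ± 0.20 (SE, limma adjusted p = 0.574). Hars, the histidyl-tRNA synthetase (ENSMUSG00000001380), had 70.6 RPKM in DMSO, 54.0 in TUDCA 1 and 53.5 in TUDCA 2. Its TUDCA libraries nearly coincided, at 0.765 and 0.758 of DMSO, and its log2 fold change of -0.39 ± 0.22 was the lowest of all 36 genes (limma adjusted p = 0.576). The 95% interval of that log2 fold change ran from -0.82 to 0.05, so a 1.5-fold reduction and no change both lay within it.

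Gars, which encodes glycyl-tRNA synthetase for both the cytosol and the mitochondria, had 216.2 RPKM in DMSO, 167.0 in TUDCA 1 and 178.4 in TUDCA 2. Nars, the asparaginyl-tRNA synthetase, had 161.9, 135.7 and 124.2 RPKM in the same order, and Aars, the alanyl-tRNA synthetase, 285.1, 210.5 and 255.3 RPKM. Each had DMSO as its highest library, and their log2 fold changes were -0.32 ± 0.20, -0.32 ± 0.21 and -0.30 ± 0.20 (limma adjusted p = 0.641, 0.662 and 0.678). The tryptophanyl-tRNA synthetase gene Wars, which is also known as an interferon-inducible gene, had 65.5 RPKM in DMSO, 50.5 in TUDCA 1 and 57.4 in TUDCA 2 (log2 fold change -0.28 ± 0.22, limma adjusted p = 0.772). It stood below DMSO although the interferon-stimulated genes described further on had positive mean differences.

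Phenylalanyl-tRNA synthetase is built from alpha and beta subunits, encoded by Farsa and Farsb. Farsa had 43.7 RPKM in DMSO, 32.8 in TUDCA 1 and 39.7 in TUDCA 2, and Farsb had 40.9, 35.2 and 32.3 RPKM. The subunit transcripts were at like levels in DMSO and had like log2 fold changes, both -0.27 ± 0.23, although the lower TUDCA library was TUDCA 1 for Farsa and TUDCA 2 for Farsb. Cars, Tars, Vars and Yars, the enzymes for cysteine, threonine, valine and tyrosine, lay nearer to DMSO, with mean TUDCA levels of 0.869, 0.859, 0.902 and 0.879 of it.

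The reads behind these values were many. RPKM values allow the smallest whole number of reads per gene to be worked out, which was 736 to 5874 per cytosolic gene in DMSO and 48 to 726 per mitochondrial gene. From these reads the level of Sars in TUDCA 1 was 0.698 of DMSO (exact 95% interval 0.670 to 0.727) and in TUDCA 2 0.879 (0.846 to 0.912), intervals that do not meet. The TUDCA libraries thus differed from each other by more than counting error, and such intervals, which cover counting error only, compare libraries and not conditions. Over all 20 cytosolic genes the interval lay wholly below 1 for 16 in TUDCA 1, for 14 in TUDCA 2 and for 12 in both, and wholly above 1 for 2 (Dars and Lars) in TUDCA 1 and for 0 in TUDCA 2. The intervals were computed for the members only, so these counts have no share over all tested genes beside them.

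RefSeq promoter windows (GRCm38.p6, 250 bases before to 50 after a start) were at hand for 27 of the 36 genes, and are shown where they hold the core of the CARE, searched as TGATGNAA on both strands. The core was found in 4 of 7 free cytosolic genes with a window, 1 of 6 complex genes and 0 of 14 mitochondrial genes, against 3.97% of all 32851 windows. The stretches below run 5′ to 3′ on the strand of the gene, with the core, or its reverse complement, in capitals. Each has up to 20 bases on either side of the core and ends within 30 bases after the start, and the first base of the core is given relative to the start base.
Aars, core at -112, chr8:111033710-111033757, plus strand: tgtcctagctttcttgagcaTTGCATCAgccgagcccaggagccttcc
Aars, second core at 9, chr8:111033831-111033871, plus strand: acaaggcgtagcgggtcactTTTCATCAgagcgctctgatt
Gars, core at -30, chr6:55037951-55037998, plus strand: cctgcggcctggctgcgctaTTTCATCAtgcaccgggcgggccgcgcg
Tars, core at -15, chr15:11399646-11399693, minus strand: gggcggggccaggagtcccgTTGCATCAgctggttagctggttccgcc
Yars, core at 3, chr4:129189886-129189932, plus strand: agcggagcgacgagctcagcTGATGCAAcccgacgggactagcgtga
Iars, core at 7, chr13:49682117-49682159, plus strand: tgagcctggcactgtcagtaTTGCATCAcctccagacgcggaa

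Aars, Gars, Tars and Yars, with the core in their windows, had log2 fold changes of -0.30, -0.32, -0.22 and -0.18. Sars, Farsa and Farsb, whose windows do not hold these letters, had -0.35, -0.27 and -0.27, so the values of free enzymes with and without the core overlapped. Iars, the only complex gene with the core, had 0.03. A match of 8 letters is a description of the window and not a site of binding. Elements known from interferon-responsive genes were searched on either strand in the windows of 27 members. A pair of GAAA blocks with 2 bases between them was found in 1, Qars (3.44% of all windows). TTCNNNGAA was found in Aars, Kars and Nars2 (8.3% of all windows). Wars had no window, so its promoter was not searched.

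The 8 enzymes of the multisynthetase complex did not share the order of the free ones. Both TUDCA libraries were below DMSO for 3 (Kars, Mars and Rars), above for 2 (Dars and Iars) and on either side for 3 (Eprs, Lars and Qars), but with the libraries centred on their medians 6 had both below. Their median log2 fold change was -0.09 (-0.04 in TUDCA 1 and -0.11 in TUDCA 2), with a range from -0.26 to 0.25. Their levels in DMSO, 24.5 to 185.9 RPKM with a median of 104.5, overlapped those of the free enzymes, 40.9 to 305.4 RPKM with a median of 113.3. The difference between both groups was not tested.

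Kars, the lysyl-tRNA synthetase of both cytosol and mitochondria, had the lowest difference of the complex. It stood at 141.1 RPKM in DMSO, 110.8 in TUDCA 1 and 124.8 in TUDCA 2 (log2 fold change -0.26 ± 0.21, limma adjusted p = 0.771). Dars, the aspartyl-tRNA synthetase, lay at the other end, at 46.7 RPKM in DMSO, 63.9 in TUDCA 1 and 48.4 in TUDCA 2. Its mean of 56.1 ± 10.9 RPKM rested on TUDCA 1, whose interval against DMSO was 1.239 to 1.508, while that of TUDCA 2 was 0.934 to 1.148 and included 1. Without TUDCA 1 the log2 fold change of Dars was 0.05 in place of 0.25.

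Iars, the isoleucyl-tRNA synthetase, was nearly level across the libraries, at 100.2 RPKM in DMSO, 103.0 in TUDCA 1 and 101.6 in TUDCA 2, and its log2 fold change of 0.03 became -0.045 with median centring. Lars, the leucyl-tRNA synthetase, was the least abundant cytosolic gene, at 24.5, 27.3 and 21.3 RPKM in the same order. Eprs, whose product charges both glutamate and proline tRNAs, likewise had TUDCA 1 above and TUDCA 2 below DMSO (34.5, 35.9 and 29.5 RPKM). Qars, for glutamine, had the opposite order, with TUDCA 1 at 0.826 and TUDCA 2 at 1.027 of DMSO. The scaffold genes had no call either. Aimp1 stood at 77.7 RPKM in DMSO, 83.0 in TUDCA 1 and 72.5 in TUDCA 2. Aimp2 stood at 58.0, 44.3 and 59.7 RPKM and Eef1e1, which encodes AIMP3, at 35.6, 31.8 and 32.3 RPKM, so both TUDCA libraries lay below DMSO for Eef1e1 only.

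**Figure D2:**
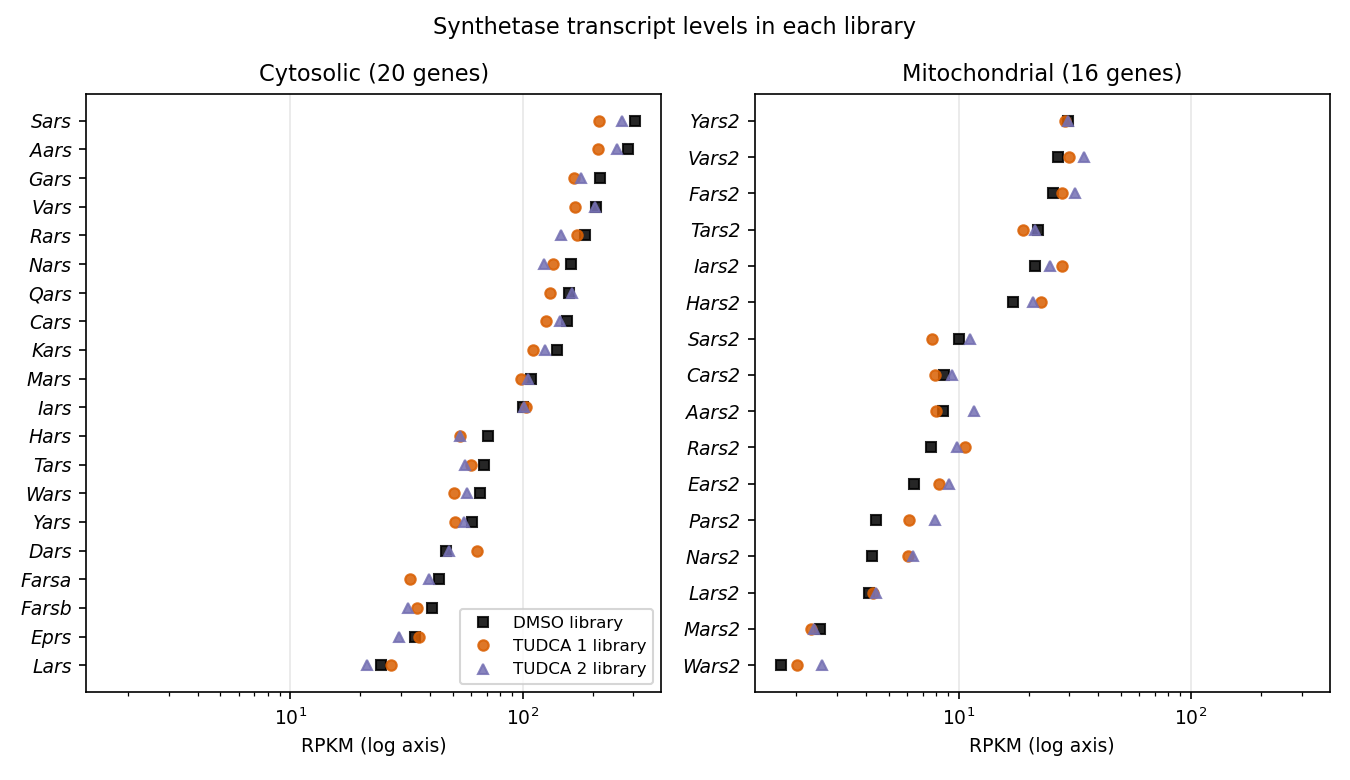
Level of each synthetase transcript in RPKM on a log axis, with cytosolic genes on the left and mitochondrial genes on the right, each ordered by its DMSO value; squares are the DMSO library, circles TUDCA 1 and triangles TUDCA 2. The scale is the same in both panels, and the cytosolic genes lie between 21.3 and 305.4 RPKM while the mitochondrial genes lie between 1.72 and 34.6 RPKM.

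The mitochondrial enzymes were expressed at lower levels, with a small overlap. In DMSO, 1 cytosolic gene (Lars) lay under the highest mitochondrial one (Yars2, 29.5 RPKM), and 3 mitochondrial genes (Fars2, Vars2 and Yars2) lay above Lars. Vars2, the mitochondrial valyl-tRNA synthetase, was the highest by its mean, at 26.8 RPKM in DMSO, 29.8 in TUDCA 1 and 34.6 in TUDCA 2. Wars2, for tryptophan, was the lowest, at 1.72, 2.02 and 2.59 RPKM, with at least 48, 51 and 71 reads. Both genes kept the order of DMSO lowest and TUDCA 2 highest.

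Pars2, the mitochondrial prolyl-tRNA synthetase (ENSMUSG00000043572), differed most from DMSO of all 36 genes. It had 4.42 RPKM in DMSO, 6.10 in TUDCA 1 and 7.94 in TUDCA 2, so its mean was 1.59 times DMSO (log2 fold change 0.56 ± 0.29, limma adjusted p = 0.487). Its intervals against DMSO were wide, 1.010 to 1.891 in TUDCA 1 and 1.346 to 2.413 in TUDCA 2, from at least 76, 95 and 134 reads. Nars2, for asparagine, had 4.24, 6.04 and 6.39 RPKM in the same order, a mean of 1.47 times DMSO (log2 fold change 0.46 ± 0.29, limma adjusted p = 0.645). Its cytosolic counterpart Nars had the reverse order, with DMSO as its highest library.

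Rars2, for arginine, had 7.63 RPKM in DMSO, 10.7 in TUDCA 1 and 9.85 in TUDCA 2. Ears2, the mitochondrial glutamyl-tRNA synthetase, which also loads glutamate onto the tRNA for glutamine, had 6.43, 8.24 and 9.10 RPKM. Hars2, for histidine, had 17.1, 22.7 and 20.8 RPKM. All 3 had both TUDCA libraries above DMSO, with log2 fold changes of 0.38 ± 0.28, 0.38 ± 0.28 and 0.33 ± 0.25, and none was called (limma adjusted p = 0.724, 0.744 and 0.759). Iars2, Fars2, Vars2, Wars2 and Lars2 had the same order, with log2 fold changes from 0.06 for Lars2 to 0.29 for Iars2. Counting intervals lay wholly above 1 in both TUDCA libraries for 5 mitochondrial genes (Ears2, Hars2, Iars2, Nars2 and Pars2) and wholly below 1 in both for 0. Here too, the share over all tested genes was not computed.

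The other 6 mitochondrial genes did not follow this order. Mars2, Tars2 and Yars2 had both TUDCA libraries below DMSO by small margins, at mean levels of 0.925, 0.918 and 0.983 of DMSO. Sars2, for serine, had 10.1 RPKM in DMSO, 7.66 in TUDCA 1 and 11.2 in TUDCA 2, and Aars2, for alanine, had 8.59, 8.02 and 11.6 RPKM. Their TUDCA libraries differed more from each other than those of the other members, by 0.50 and 0.48 on the log2 scale, and lay on either side of DMSO. Cars2, for cysteine, was also on either side. TUDCA 2 was the higher of the TUDCA libraries for 13 of 16 mitochondrial and 11 of 20 cytosolic genes.

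Because a ratio of genes within a library does not depend on how libraries are scaled to each other, each mitochondrial enzyme was also set against its cytosolic counterpart. There are 16 such pairs, Eprs serving for both Ears2 and Pars2 and Farsa for Fars2. In DMSO the cytosolic transcript was the more abundant in all 16, with a median ratio of 7.76, against 6.13 in TUDCA 1 and 5.37 in TUDCA 2. The ratio was below that of DMSO in both TUDCA libraries for 13 pairs, above it in both for 0 and on either side for 3 (Lars/Lars2, Mars/Mars2 and Tars/Tars2). The median change of the ratio was -0.35 in TUDCA 1 and -0.42 in TUDCA 2 on the log2 scale. Both changes of a pair share the DMSO library, and no background was computed for pairs. Genes of the cytosolic and mitochondrial ranges had medians of -0.07 and 0.13 in TUDCA 1 and of -0.03 and 0.05 in TUDCA 2. This level trend, smaller in TUDCA 2, lowers such ratios too, so the count of pairs is a description only.

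The histidine, asparagine and tryptophan pairs show how both genes of a pair stood. Hars/Hars2 had a ratio of 4.13 in DMSO, 2.38 in TUDCA 1 and 2.57 in TUDCA 2. Nars/Nars2 had 38.2, 22.5 and 19.4, and Wars/Wars2 had 38.1, 25.1 and 22.2. In these 3 pairs the cytosolic gene stood below DMSO and the mitochondrial gene above it in both TUDCA libraries. Eprs/Pars2 went from 7.81 in DMSO to 5.88 and 3.71, mostly through Pars2, since Eprs lay on either side of DMSO. Mars/Mars2 stood at 42.7, 42.5 and 44.2, and Yars/Yars2 at 2.06, 1.80 and 1.89.

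**Figure D3:**
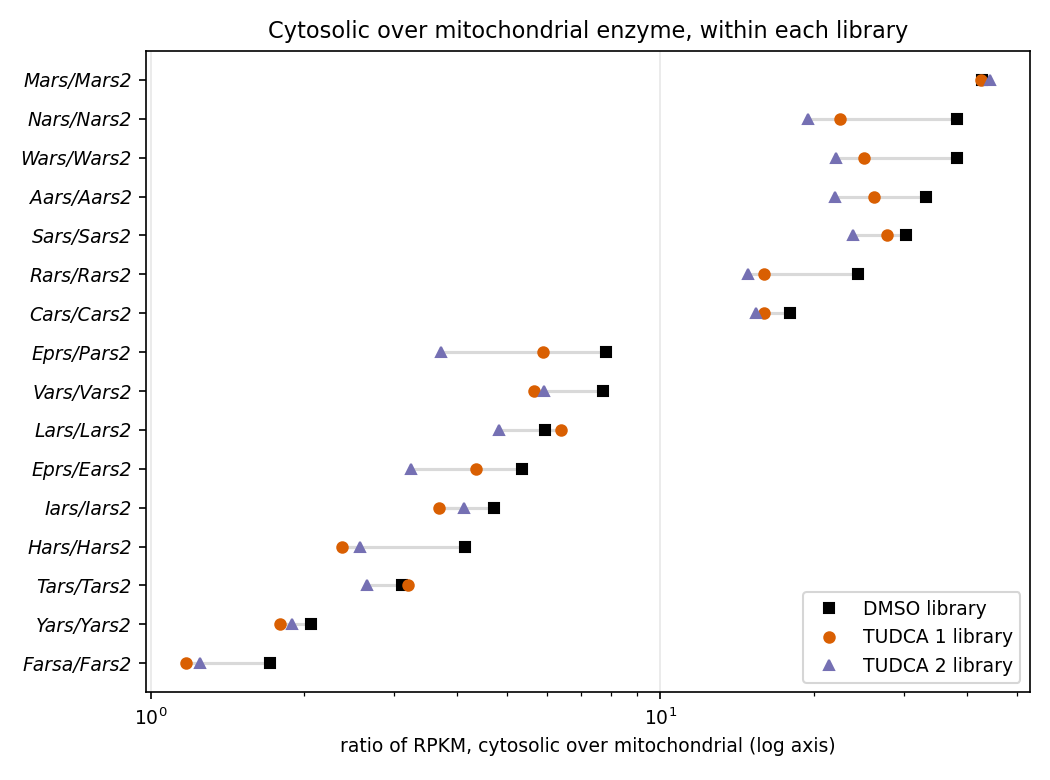
Ratio of the RPKM of the cytosolic gene to that of its mitochondrial counterpart, on a log axis, within each library, for the 16 pairs in order of the DMSO ratio; squares are DMSO, circles TUDCA 1 and triangles TUDCA 2. In 13 pairs both TUDCA ratios lie to the left of DMSO, with Mars/Mars2 nearly level at 42.7, 42.5 and 44.2.

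Of the members, 13 share exon sequence with another gene in the GENCODE M21 annotation, mostly on the opposite strand. No source used here says whether reads were counted by strand. Cars2 shares 422 bases with Naxd, at 51.7, 45.3 and 54.6 RPKM in DMSO, TUDCA 1 and TUDCA 2. Cars2 itself had 8.67, 7.90 and 9.39 RPKM, the same order of libraries. Yars shares 30 bases with C77080, at 122.7, 103.8 and 112.2 RPKM in DMSO, TUDCA 1 and TUDCA 2. Yars itself had 60.9, 51.3 and 55.7 RPKM, again the same order. Hars and Hars2 lie head to head and share 195 bases of exon, so some reads of one could be counted for the other. Mars shares 68 bases with Ddit3, which encodes CHOP and had 69.7 RPKM in DMSO and 35.2 and 36.9 with TUDCA. Fars2 shares 501 bases with Nrn1, at 71.6, 188.3 and 110.5 RPKM in DMSO, TUDCA 1 and TUDCA 2, and Ears2 shares 89 bases with Ubfd1, at 52.5, 42.2 and 41.6 RPKM. Iars2 shares 2034 bases with Rab3gap2, at 11.3, 10.5 and 9.10 RPKM. Aars shares 1326 bases on its own strand with Exosc6. The GENCODE M21 identifier of Exosc6 is not among those with RPKM values, so no level was at hand for it. The part of these neighbours in the levels of the synthetases was not tested.

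The genes around the synthetases were read from lists. In the list of ATF4 and its targets other than synthetases, 32 of 34 genes were tested, 2 were called lower, 1 higher and 29 not called, against 0.876% lower and 1.77% higher over all tested genes. Ppp1r15a (GADD34, a phosphatase subunit that reverses phosphorylation of eIF2-alpha) fell from 90.4 RPKM in DMSO to 33.7 and 45.2 in the TUDCA libraries (limma adjusted p = 1.7e-05, log2 fold change -1.19 ± 0.22), and Ddit3 fell as given above (adjusted p = 0.00304). Gpt2, a mitochondrial alanine aminotransferase, rose from 110.3 to 283.3 and 219.0 RPKM (adjusted p = 2.0e-06). Both TUDCA libraries lay below DMSO for 26 of the 32 and above for 2, against 30.4% and 40.5% of all tested genes, and the median log2 fold change was -0.43, further from 0 than the -0.27 of the free cytosolic synthetases. The list was chosen with results of these libraries known, so its direction is no independent support.

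The amino acid response genes that are most often read beside the synthetases were not called. Asns, asparagine synthetase, had 170.5 RPKM in DMSO, 108.0 in TUDCA 1 and 129.1 in TUDCA 2 (log2 fold change -0.53 ± 0.21, limma adjusted p = 0.205). Trib3, a pseudokinase induced by ATF4, had 108.9, 65.7 and 81.0 RPKM (adjusted p = 0.164), and the amino acid transporter gene Slc7a5 had 20.8, 9.77 and 14.0 RPKM (adjusted p = 0.0968). Atf4 itself had 224.8, 184.1 and 214.5 RPKM (log2 fold change -0.18 ± 0.20, adjusted p = 0.880). DMSO was the highest library for each of these genes, as it was for all 12 free cytosolic synthetases on the deposited scale. Of the 6 genes for eIF2-alpha kinases and their partners, 0 were called, against 2.65% of all tested genes. Their median log2 fold change was 0.00 (0.12 in TUDCA 1 and -0.06 in TUDCA 2). Both TUDCA libraries lay above DMSO for 2, below for 2 and on either side for 2. Those above were Eif2ak2 and Eif2ak3, each with a log2 fold change of 0.30, mostly through TUDCA 1 (0.58 and 0.53).

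The mitochondrial synthetases were set beside 20 tested genes of mitochondrial translation and tRNA maturation. None of the 20 was called, against 2.65% of all tested genes. Both TUDCA libraries were above DMSO for 9 and below for 4, against 40.5% and 30.4% of all tested genes. Within the mitochondrial range of level these shares were 46.0% and 24.0%. The median log2 fold change was 0.02, against 0.24 for the mitochondrial synthetases. Guf1, a mitochondrial elongation factor, had the largest difference, with 1.54 RPKM in DMSO and 3.46 and 2.29 in the TUDCA libraries (limma adjusted p = 0.486, log2 fold change 0.59 ± 0.31). Of the 3 subunits of the amidotransferase that finishes the charging of mitochondrial glutamine tRNA, Gatb, Gatc and Qrsl1, the log2 fold changes were 0.31, -0.01 and 0.00. Among 10 genes of cytosolic translation elongation and termination, 0 were called, against that 2.65% of all tested genes, and the median was -0.12. Eif5a, an elongation factor, had 1977 RPKM in DMSO and 1395 and 1629 with TUDCA (log2 fold change -0.39 ± 0.20, adjusted p = 0.449).

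Among 11 genes of synthetase-related proteins, which edit or release tRNAs or resemble synthetases, 0 were called, against 2.65% of all tested genes. Their median log2 fold change was 0.03. Dtd1, a deacylase that clears D-amino acids from tRNA, had a log2 fold change of 0.29 (limma adjusted p = 0.797). Of 13 tested interferon-stimulated genes, read for Wars, 0 were called, against the same 2.65%. Both TUDCA libraries were above DMSO for 11 of the 13, against 40.5% of all tested genes, and the median was 0.25. Irf1 had 27.1 RPKM in DMSO and 39.7 and 48.5 with TUDCA (limma adjusted p = 0.104), so both TUDCA libraries lay above DMSO, whereas for Wars both lay below.

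**Figure D4:**
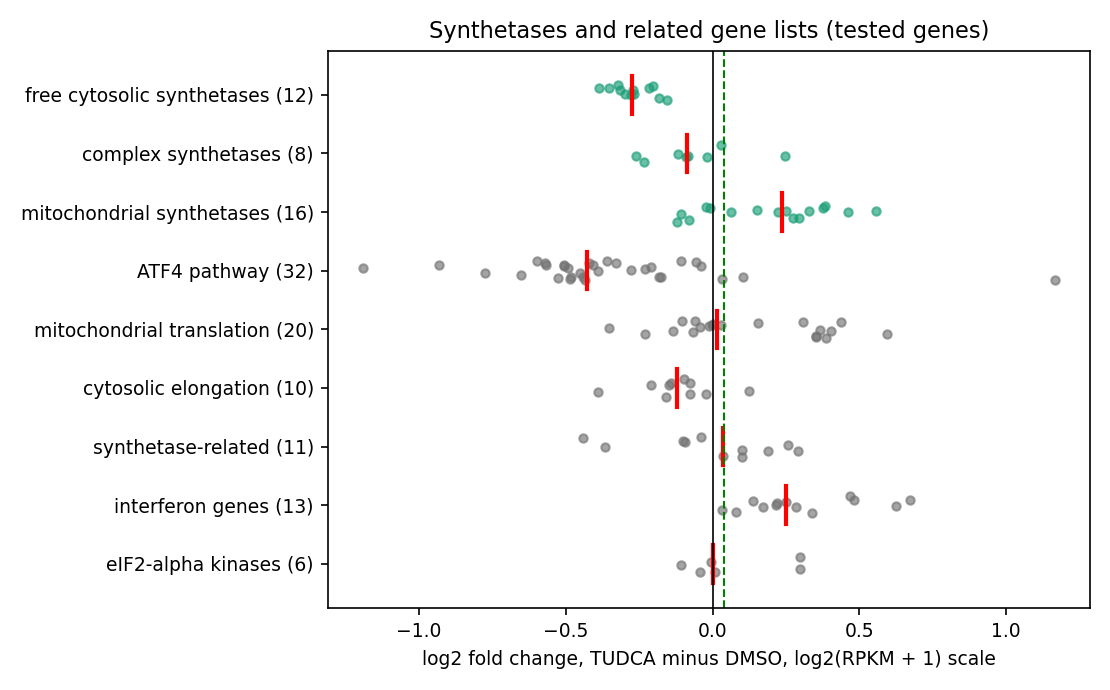
Mean log2 fold change, TUDCA minus DMSO on the log2(RPKM + 1) scale, of each tested gene in the synthetase groups (green) and in the lists read beside them (grey), with the number of genes in brackets; red bars are medians and the dashed line is the median of all tested genes. Medians lie left of 0 for the free cytosolic synthetases (-0.27) and the ATF4 list (-0.43). They lie right of 0 for the mitochondrial synthetases (0.24) and interferon genes (0.25). Of single genes, 5 of 16 mitochondrial synthetases lie left of 0 and 3 of 32 in the ATF4 list right of it.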

How the data were processed

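Polyadenylated RNA, isolated with oligo(dT) beads, was reverse transcribed from random hexamers and sequenced, per the labels' protocols. The authors deposited RPKM values, 1 table per library, made with HTSeq, Bowtie2, TopHat2 2.0.7 and CASAVA in roles that the submitters' processing notes leave out. Neither the genome build nor the annotation is named in the sources used here. Symbols came from GENCODE M21 by identifier and matched 32897 of 37620.

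The 11300 genes whose 3 libraries averaged 1 RPKM or more were tested with limma 3.58.1 in R 4.3.3 (variance trend, threshold 0.05) on log2(RPKM + 1), a scale that understates changes of low genes. The prior degrees of freedom were infinite, so SEs (SD of 0.159 to 0.265) reflect a spread shared by genes of like level, and intervals of fold changes use it. DMSO has no replicate.

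The smallest whole reads were recovered for all 19146 genes above 0, within 1e-06 reads, and add up to 95.68 to 95.85% of the totals. The true number can be a multiple of the smallest. Exact (Clopper-Pearson) 95% intervals rest on them, as does voom. The fit was tried on simulated reads in which every library varied alike, so the assumption that DMSO varies as the TUDCA libraries do was not tested. Named were the members with the largest differences of 1 direction (6 cytosolic, 5 mitochondrial), extremes of level, Wars, Gars, Kars and those whose TUDCA libraries differ most, and of other lists the called and up to 4 further genes. Members not covered by this rule were named after their values were seen. Members and lists were chosen with earlier results of these data known. The fit was repeated without the filter, with a filter of 5 RPKM, a pseudocount of 0.1, TPM, quantile normalization, median centring, no trend, robust estimation, voom, each TUDCA library left out and, added after seeing the data, a correction for GC content and length.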

Additional observations from a re-analysis of the deposited data

How the results depend on the processing

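No synthetase was called under any of the 10 alternatives with a test, and the lowest adjusted p of a member was 0.212, for Hars after the GC and length correction. All genes called numbered 299, 0 without the filter and 110 with that correction. Members with an unadjusted p below 0.05 numbered 0, 1 without the filter (Hars), 1 without the trend, 1 with robust estimation (Pars2 in both) and 7 with the GC and length correction. Of 357 member values under these alternatives, 352 kept their direction. The other 5 were Iars with median centring (-0.045) and the correction (-0.024), and Lars2 with quantile normalization (-0.076), median centring (-0.011) and the correction (-0.025). The cytosolic median was -0.16 with quantile normalization and -0.30 with median centring, and -0.26 and -0.18 with 1 TUDCA library left out. The mitochondrial median lay between 0.14 and 0.29 with 1 TUDCA library left out. The cytosolic minus the mitochondrial median was -0.46, -0.33 with quantile normalization, and -0.47 and -0.40 with 1 TUDCA library left out. The median of all genes, 0.04, was -0.0076 with quantile normalization, -0.035 with median centring and -0.0013 with the correction, and 0.02 and 0.06 with 1 library left out. Of the 8 complex genes, 6 lay below DMSO in both TUDCA libraries with median centring in place of 3. All 12 free cytosolic genes did so under each alternative except quantile normalization (11). The causes were not tested. At 5 RPKM only 13 mitochondrial genes remained. With 1 TUDCA library against DMSO no degree of freedom is left for a test. No paired analysis was possible because both TUDCA libraries share 1 DMSO library. The mitochondrial genes above DMSO in both TUDCA libraries numbered 8 with quantile normalization and 9 with median centring in place of 10. The single DMSO library limits every comparison, and depth limits those of the low mitochondrial genes.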
